A study of Mus musculus with 4 samples.

Results

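The epithelial–mesenchymal transition (EMT) turns cells that are joined into a sheet into single, motile cells, and 10 core genes of this program were examined in MLE12 mouse lung epithelial cells. The genes were chosen by name, with earlier results of these data known. They were E-cadherin (Cdh1), N-cadherin (Cdh2), vimentin (Vim), fibronectin (Fn1), Epcam and the transcription factors Snai1, Snai2, Zeb1, Zeb2 and Twist1. Of these 10 genes, 8 had a row with a mean level among 17906 genes, whereas Snai2 and Twist1 had no row in the table used here. The RNA came from 2 Lmnb1 KD samples, in which lamin B1 was silenced, and 2 control samples, all MLE12 cells grown in DMEM/F12 medium with fetal calf serum and 2 µg/ml puromycin. MLE12 cells are an established line derived from a mouse lung tumor driven by SV40 large T antigen and keep features of alveolar type II cells, the surfactant-producing cells of the lung. Stable lines were made with lentiviral shRNA. The labels and the methods do not say which shRNA the sequenced cells carried.

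The values are mean levels over all 4 libraries, so they describe the KD and control cells together. Each is a normalized count, the number of reads on a gene after the authors divided each library by its DESeq2 size factor. No difference between Lmnb1 KD and control cells was analysed here. The mean levels of all genes added up to 22404229.5, with a median of 277 per gene. Because long transcripts give more reads than short ones, genes were compared as normalized counts per kb of annotated exons, a scale on which the median of 17683 genes was 71.9. Intervals on single values are 95% Poisson intervals and cover counting error only, not the spread between cultures.

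In an epithelial sheet, E-cadherin holds neighboring cells together through catenins, and Epcam is a further adhesion protein of epithelial surfaces. During EMT the Snail and Zeb factors bind E-box motifs in epithelial genes and repress them, N-cadherin takes the place of E-cadherin, the filament protein vimentin accumulates and fibronectin is laid down outside the cell. Cells can also hold both sets of genes, a state that is usually described as hybrid or partial EMT.

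The promoters of Vim, Epcam and Snai1 are shown because Vim had the highest and Epcam and Snai1 the lowest mean levels of the members, and because the hexamers CACCTG and CAGGTG are the E-box forms that Snail and Zeb factors bind. Each is the 250 bases before the RefSeq start on GRCm38.p6, 5′ to 3′ on the plus strand, with every match to CANNTG in capitals. The windows are chr2:13574061-13574310 for Vim, chr17:87635729-87635978 for Epcam and chr2:167537945-167538194 for Snai1. The Vim window lies inside the gene as annotated by GENCODE, which starts at chr2:13573927, so its content depends on the RefSeq start.
Vim: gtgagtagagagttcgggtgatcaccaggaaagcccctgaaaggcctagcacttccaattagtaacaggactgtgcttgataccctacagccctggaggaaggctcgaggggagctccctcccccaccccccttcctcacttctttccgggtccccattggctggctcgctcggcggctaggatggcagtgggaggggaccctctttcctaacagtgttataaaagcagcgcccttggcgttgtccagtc
Epcam: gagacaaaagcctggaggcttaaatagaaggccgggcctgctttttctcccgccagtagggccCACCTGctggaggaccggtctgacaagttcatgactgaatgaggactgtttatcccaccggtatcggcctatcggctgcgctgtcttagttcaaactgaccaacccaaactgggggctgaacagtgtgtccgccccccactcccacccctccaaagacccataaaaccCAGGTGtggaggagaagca
Snai1: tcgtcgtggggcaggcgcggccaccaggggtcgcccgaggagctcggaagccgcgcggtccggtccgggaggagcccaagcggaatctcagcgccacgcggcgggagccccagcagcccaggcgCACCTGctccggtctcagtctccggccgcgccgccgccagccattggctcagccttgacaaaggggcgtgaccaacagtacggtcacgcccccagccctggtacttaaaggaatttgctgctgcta

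The Epcam window held 2 E-boxes, CACCTG starting 187 bases and CAGGTG starting 19 bases before the start, and both were of the form bound by Snail and Zeb factors. The Snai1 window held 1, CACCTG starting 126 bases before the start. The Vim window held 0 matches to CANNTG and 1 match to TATAAA, the core of a TATA box, searched on both strands. The remaining members with a promoter entry, Zeb2 (4 starts) and Twist1, had 0 matches to CANNTG in each window. Cdh1 had no promoter entry. Whether E-boxes go with the level of a gene was not tested. Among 32851 promoter windows of the same length, 66.2% held CANNTG, 17.2% held CACCTG or CAGGTG, which are each other's reverse complement and are included in CANNTG, and 12.4% held TATAAA on either strand. These matches describe the letters of the windows and do not show binding.

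All 3 mesenchymal members were well detected, and Vim stood far above the other members. Vim, which encodes the intermediate filament protein of mesenchymal cells, had a mean normalized count of 32633, which took 0.146% of all counts and ranked 23 of 17906 genes. This corresponds to 6880 per kb (95% interval 6842 to 6919). Fn1, the matrix glycoprotein to which integrins attach, followed with a mean normalized count of 8213, or 703 per kb (695 to 711), and lay at percentile 89.1 of all genes per kb. Vim was thus 9.79-fold higher than Fn1 per kb of merged exons (9.67 to 9.91). The interval leaves out the choice of length, on which the size of this ratio depends. Merged exons are 4743 bases for Vim and 11685 for Fn1. The longest transcripts are 2926 and 8315 bases, and the coding lengths 1398 and 7431. Cdh2, the gene of N-cadherin, had a mean normalized count of 1502, or 186 per kb (181 to 191), at percentile 66.3. On the mm10 assembly Vim lies at chr2:13573927-13582826 on the plus strand, Fn1 at chr1:71585520-71653200 on the minus strand and Cdh2 at chr18:16588877-16809246 on the minus strand. Of the 11685 exon bases of Fn1, 292 are shared with the antisense gene Apol7d, which had a mean normalized count of 6.64.

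**Figure D1:**
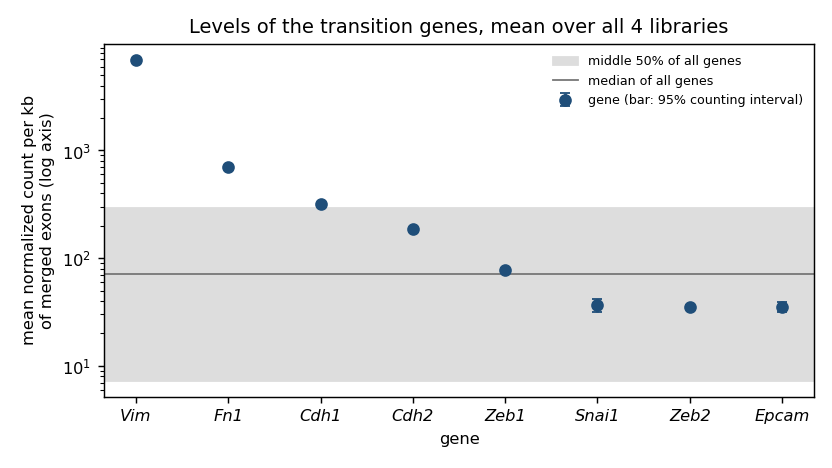
Mean normalized count per kb of merged exons (log axis) for the 8 transition genes with a value, each the mean over all 4 libraries, with bars for the 95% counting interval. The band covers the middle 50% of all genes and the line their median of 71.9 per kb; Vim lies near 6880, whereas Zeb2, Epcam and Snai1 lie between 35.3 and 36.6 and below the median.

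The epithelial members Cdh1 and Epcam differed from each other more than Cdh1 differed from Cdh2. Cdh1 had a mean normalized count of 1463, or 320 per kb (311 to 329), at percentile 76.4 of all genes per kb. Epcam had only 77.4, or 35.3 per kb (31.3 to 39.6), at percentile 41.2. Per kb of merged exons, Cdh1 exceeded Epcam 9.07-fold (8.06 to 10.2). On the same scale Vim exceeded Epcam 195-fold (174 to 220) and Cdh1 21.5-fold (20.9 to 22.1). These intervals leave out the choice of length, on which the size of such ratios depends. Merged exons of Vim are 4743 bases, but its longest transcript is 2926 and its coding length 1398. The order of the cadherins depended on the length by which their counts were divided. With merged exons, which are 4574 bases for Cdh1 and 8066 for Cdh2, the level of Cdh1 was 1.72-fold that of Cdh2 (1.66 to 1.78). With the longest transcript the ratio was 1.07 (4430 and 4843 bases), with the coding length it was 0.999 (2652 and 2718 bases), and as counts without division by length it was 0.974. The mean levels therefore give no firm order of the E- and N-cadherin transcripts. Cdh1 lies at chr8:106603351-106670246 and Epcam at chr17:87635979-87651129, both on the plus strand, and neither shares exon bases with another annotated gene.

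The transcription factors were less abundant than the structural members on all 4 scales, apart from Epcam. Zeb1 had the highest level among them, with a mean normalized count of 797, or 77.7 per kb (74.9 to 80.5), close to the median of all genes. Zeb2, its paralog, had 704, or 35.3 per kb (34.0 to 36.7). Zeb1 was 2.20-fold higher than Zeb2 per kb of merged exons (2.09 to 2.32), and it also exceeded Zeb2 by 1.78-fold with the longest transcript, 1.28-fold with the coding length and 1.13-fold without division by length. The size of this difference rests on annotation, because 29 transcripts of Zeb2 add up to 19942 exon bases, whereas the longest is 9124 bases. Zeb2 shares 653 exon bases with the antisense gene Zeb2os, which had a mean normalized count of only 1.95. Snai1, a zinc finger repressor of E-cadherin, had the lowest mean normalized count of the members, at 59.3. Its transcript is short (1621 bases), so that its level of 36.6 per kb (31.9 to 41.7) did not differ from those of Zeb2 and Epcam beyond counting error on merged exons. On the other 3 scales Snai1 was the lowest member and Zeb2 stood above Epcam. Per kb of merged exons, the ratio of Zeb2 to Snai1 was 0.965 (0.841 to 1.11) and that of Epcam to Snai1 was 0.964 (0.806 to 1.15). Zeb1 exceeded Snai1 2.12-fold on this scale (1.85 to 2.44). The gap is larger with the longest transcript, since that of Zeb1 is 5801 bases against 10266 merged exon bases. Zeb1 lies at chr18:5591860-5775467 and Snai1 at chr2:167538195-167542814 on the plus strand, and Zeb2 at chr2:44983632-45117395 on the minus strand. In all, 5 of the 8 genes lay above the median of all genes per kb, namely Vim, Fn1, Cdh1, Cdh2 and Zeb1. With only protein-coding genes as background, or only genes with a mean level of at least 2, the number was 4, since the median was then 124 or 91.3 per kb and Zeb1 fell below it.

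For Epcam and Snai1 the reads in each library could be recovered from the mean level. A mean over 4 libraries is a sum of whole reads, each worth a fixed amount that depends on the library. With the lowest value taken as 5 reads, the steps between the lowest values gave that amount as 0.233, 0.237, 0.262 and 0.268 for libraries a, b, c and d. The size factors are then 1.07, 1.05, 0.953 and 0.934. The letters only follow the size factor. No source used here says which of these libraries are Lmnb1 KD and which are control, so their values are given one by one and were not compared between groups. Epcam had 81, 88, 60 and 82 reads in libraries a to d, 311 in all. After normalization these are 75.4, 83.4, 63.0 and 87.8. The intervals of the lowest (48.1 to 81.1) and the highest library (69.8 to 109) overlapped, and the highest was 1.39-fold the lowest. Snai1 had 55, 34, 67 and 78 reads, 234 in all, or 51.2, 32.2, 70.3 and 83.5 after normalization. Library d (66.0 to 104) and library b (22.3 to 45.1), the highest and the lowest, did not overlap in their intervals and differed 2.59-fold. These spreads take in libraries of both groups. A wide spread was not particular to Snai1. The epithelial genes Esrp1 and Elf3 ran from 35.4 to 96.4 and from 57.8 to 145 after normalization. Grhl2, also epithelial, and the mesenchymal gene Tagln varied less, from 63.0 to 96.7 and from 77.3 to 106. For the other 6 members the levels lay above 140, the highest level for which reads were solved, so no set of reads was sought. Their mean levels allow between 2632 and 3026 reads for Zeb2 at the low end and between 121903 and 140243 for Vim at the high end.

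**Figure D2:**
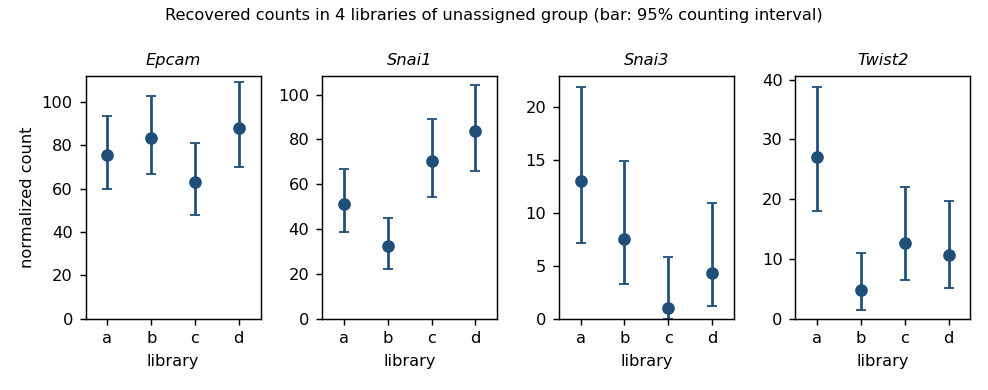
Normalized counts of Epcam, Snai1, Snai3 and Twist2 in libraries a to d, recovered from the mean level, with 95% counting intervals; the group of each library is not known. Epcam lies between 63.0 and 87.8 with overlapping intervals, whereas Snai1 spreads from 32.2 to 83.5.

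Other members of the Snail and Twist families were rare. Snai3 had a mean normalized count of 6.49 (27 reads in 4 libraries), or 3.98 per kb, and Twist2 had 13.8 (56 reads), or 4.33 per kb, against 36.6 per kb for Snai1. The fewest reads of any gene in the table were 5, a number that was assumed when the reads were solved. Of 12 further factors that can drive the transition, 10 had a row, and 3 of them lay above the median of all genes per kb. Tcf3, which encodes the E-box binding proteins E12 and E47, was the highest at 839 per kb, followed by Sox4 at 232 per kb. The lowest were Prrx1, a homeobox factor, at 0.694 per kb and Snai3. The median of the 10 was 16.0 per kb, against 132 for the 8 core genes and 71.9 for all genes.

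The further epithelial genes ran from very high to very low levels. The keratins Krt19 and Krt8 were abundant, and of the junction genes Tjp1 (968 per kb), Cldn3 (547), Ocln (172) and Dsp (158) lay above the median of all genes, whereas Cldn4 (1.83) and Cldn7 (1.29) were far below it. The regulators Esrp2 (60.4 per kb) and Elf3 (42.4) were below the median of 71.9, Esrp1 (10.4), Grhl2 (9.54) and the keratin Krt18 (8.96) lower, and Ovol2 (3.67) lower still. Of 18 genes 17 had a row, 6 were above and 11 below the median of all genes, and the median of the 17 was 10.4 per kb. Krt19 and Krt8, keratins of simple epithelia, had 17086 and 4865 per kb, so Krt19 lay above Vim per kb of merged exons. Without division by length Vim was the higher, at 32633 against 31695 for Krt19. The lowest were Ovol1, a factor that restrains the transition, at 0.881 per kb and Prss8, a membrane protease, at 1.14 per kb. Of 18 further mesenchymal genes 16 had a row, 4 were above and 12 below the median of all genes, and the median of the 16 was 5.57 per kb. Sparc, a secreted matrix protein, had 8031 per kb and S100a4, a calcium-binding protein, 945 per kb, whereas the fibrillar collagen genes Col3a1 and Col1a2 had 0.142 and 0.349 per kb. Both lists thus ran from far above the level of most genes to a few reads, with a list median below that of all genes.

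All 18 genes for partners of the core members were above the median of all genes per kb of merged exons, with a median of 912 per kb. The highest were Itgb1, an integrin chain of the fibronectin receptor, with 6868 per kb, and Ctnna1, the catenin that links cadherins to actin, with 3527 per kb. The lowest were Btrc, a ubiquitin ligase subunit that acts on Snail and β-catenin, with 86.4 per kb and Id2, an inhibitor of E proteins, with 113 per kb. With only protein-coding genes as background the median was 124 per kb, and both Btrc and Id2 fell below it. With only genes of a mean level of at least 2 it was 91.3 per kb, and Btrc fell below it. Without division by length Id2, at 276.5, lay just below the median of 276.7. The catenins, the corepressors and the enzymes that mark Snail for degradation were therefore all measured at levels per kb above that of Snai1 itself.

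**Figure D3:**
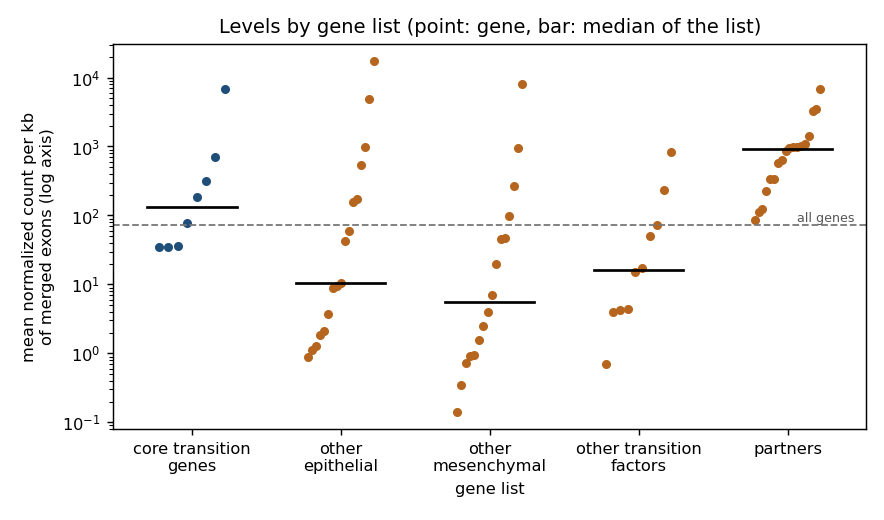
Mean normalized count per kb of merged exons (log axis) for each gene of 5 lists, with a bar for the median of each list and a dashed line for the median of all genes. The partners lie at 86.4 per kb or above, whereas the further epithelial and mesenchymal genes spread from 0.142 to 17086 per kb.

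Markers of the labelled cell type were mixed. Of 10 alveolar type II genes 7 had a row and 5 were above the median of all genes, led by Sftpb, surfactant protein B, with a mean normalized count of 6189 and Nkx2-1, the lung epithelial factor, with 2667, while Sftpc had 893 and Sftpa1 1.57. Vim, Fn1 and Cdh2 are also genes of fibroblasts, and of 6 fibroblast markers all had a row but only Dcn, a matrix proteoglycan, was above the median, with a mean normalized count of 12256. The others ranged from 4.18 for Lum to 131 for Col1a1. Of 5 endothelial markers 4 had a row, with Tek at 171 and the other 3 under 20, and of 6 immune markers only Cd68 (51.4) and Lyz2 (14.7) had a row, while Ptprc had none. Whether other cells contribute to the levels of Vim or Fn1 was not tested. Nor can the mean level tell more transcript per cell from a larger share of cells with the transcript.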

How the data were processed

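Polyadenylated RNA of 2 Lmnb1 KD and 2 control MLE12 samples was sequenced by Ion Torrent. Reaper (trimming), STAR (mapping to mm10) and DESeq2 were the tools of the authors. Not given in the sources used here were versions, the read counter and its use of strand. The values used are the deposited signal per gene, which the authors made as the mean over all libraries of counts divided by size factors. The same table holds the authors' own log2 fold changes, p-values and adjusted p-values for KD against control, which were not used, so no test was run. Of 18018 rows, 112 had no mean level and were left out.

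Exon, transcript and coding lengths came from GENCODE M21 (GRCm38), matched by identifier for 17683 of 17906 genes (98.8%). Reads per library were solved as whole numbers whose weighted sum equals the mean level within 2e-10 (5 times that from a level of 100). In 300 genes drawn from those with a level under 90, all 300 gave 1 set of reads, and the method was tested on simulated data. Size factors could not be tied to groups, so no depth per library is given. Transcripts of the members were searched for copies with BLAST 2.17.0 (95% identity over at least 100 bases). Only antisense genes that overlap Fn1 and Zeb2 were found. RefSeq promoters were matched by symbol for 5 of 10 members. Python 3.11.15, numpy 2.4.6, pandas 2.3.3 and scipy 1.17.1 were used.

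The members and gene lists were chosen with earlier results of these data known. All members were named, and from each further list the 2 genes of highest and the 2 of lowest level per kb. Twist2, Snai3 as a family member, Krt18, Tjp1, Cldn3, Cldn4, Cldn7, Ocln, Dsp, Esrp1, Esrp2, Grhl2, Elf3, Ovol2, Tagln and the cell type markers named were chosen after their values were seen. Alternatives were other lengths and other background genes.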

Additional observations from a re-analysis of the deposited data

How the results depend on the processing

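The number of members above the median of all genes per kb was 5 with merged exons and with the longest transcript, 4 with the coding length, 6 without division by length, 4 among genes whose mean level was 2 or more and 4 among protein-coding genes. The ratios of the cadherins and of the Zeb genes moved with the length beyond counting error. All other ratios of levels were computed on merged exons only, so their intervals do not cover the choice of length. The ratio of Cdh1 to Cdh2 was 1.72 with merged exons, 1.07 with the longest transcript, 0.999 with the coding length and 0.974 without division by length. The ratio of Zeb1 to Zeb2 was 2.20, 1.78, 1.28 and 1.13 on the same scales and stayed above 1 on each. By construction only the length changed. Vim and Fn1 held the first and next place on all 4 scales, and Snai1 was last on all but merged exons, where Epcam was. The ratio of Snai2 to Snai1 could not be computed, since Snai2 had no row. No paired analysis was possible because the values are means over all libraries, and the libraries recovered for Epcam and Snai1 carry no replicate number. No replicate could be left out of the ratios or of the number of members above the median, since reads per library were not recovered for the cadherins and the Zeb genes. A mean over KD and control libraries hides any change between them.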

Other observations

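Krt18, the usual partner of Krt8 in simple epithelia, had a mean normalized count of 12.9, which is 51 reads in 4 libraries, or 8.96 per kb, whereas Krt8 had 9525, or 4865 per kb. The Krt18 transcript had 0 copies among annotated transcripts at 95% identity over 100 bases, while 48.1% of the Krt8 transcript is shared with the pseudogene Krt8-ps. The methods do not say how reads with several positions were counted, so the value of Krt8 is uncertain.

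Reads of further rare genes of the transition were recovered in libraries a to d, whose groups are not known. Only some of these genes are given here, and they were chosen after their values were seen. They therefore do not show how the recovered genes as a whole vary between the libraries. The reads are not divided by the size factors. Snai3 had 14, 8, 1 and 4 reads and Twist2 had 29, 5, 12 and 10. Esrp1, a splicing factor of epithelial cells, had 38, 60, 69 and 90 reads, and Grhl2, an epithelial transcription factor, had 101, 102, 60 and 70. Elf3, an epithelial Ets factor, had 65, 61, 108 and 135 reads. Ovol2 had 4, 2, 13 and 11 reads.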
